A study of Saccharomyces cerevisiae with 6 samples.

Results

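Ribosome biogenesis factors are the proteins that build ribosomal subunits without staying in the finished ribosome. The 45 described here were named members of the small-subunit and large-subunit assembly pathways, found by gene symbol among the array's probe sets. All 45 were measured, out of 5656 genes with a probe set of their own, by 63 probe sets in all. RNA was taken from budding yeast (Saccharomyces cerevisiae) of strain Y118, which carries the histone H2B substitution K123R, and of strain Y117, the wild type (WT). Early stationary phase cells were put into fresh YPD, a rich medium, at an OD600 of 0.3, and harvested 7 hours later at an OD600 of 2.0 (30 degrees, shaken flasks). Each of the 3 H2B K123R and 3 WT cultures gave 1 Affymetrix S98 array. The substituted lysine is the residue of H2B that receives a single ubiquitin. Any other difference between the strains cannot be told apart from the substitution. Separate starter cultures are not documented, so the spread behind each p-value may be partly technical.

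Ribosomal RNA is transcribed in the nucleolus as a long precursor. Small nucleolar ribonucleoproteins (snoRNPs) modify it, the small-subunit processome folds and cuts out the part that becomes 18S rRNA, and a succession of large-subunit factors matures the parts that join the large subunit before export to the cytoplasm. In yeast the genes for these factors are known to be expressed together, at high levels in rich medium and at low levels under stress or starvation. The 45 members were sorted by role into 10 small-subunit factors, 24 large-subunit factors, 6 snoRNP proteins and 5 that act on both subunits or have no settled place.

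Values are array signals on a linear scale, given for replicates 1, 2 and 3 in turn. Where a gene had several probe sets, the one with the highest mean was used. Differences are log2 differences, H2B K123R minus WT, of signal plus 16, tested with limma and adjusted by Benjamini-Hochberg over all 9275 probe sets. The threshold was an adjusted p of 0.05. H2B K123R replicate 1 stood apart. Its log2 signals correlated at 0.958 and 0.969 with the other arrays of its group, against 0.991 between those 2 arrays and 0.992 to 0.995 between WT arrays. Its 99th percentile of signal was 8651, against 10241 to 11379 on the other 5 arrays.

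Ribosome biogenesis factors differed little between the strains. Of the 45 members, 2 rose (UTP15 and EBP2), 1 fell (NSR1) and 42 did not pass. These 3 are 6.67% of the members, while 8.98% of all genes passed (6.06% higher and 2.92% lower), so the share called was not above that of the array as a whole. At an unadjusted p under 0.05 the counts were 14 of 45 members (31.1%) and 30.7% of all genes. On the probe sets used the fitted differences ran from -0.47 to 0.49. There the 95% interval of every one of the 45 lay within a 2-fold change either way. For 31 members it lay within 1.5-fold. Further probe sets of UTP20 and UTP22 had wider intervals, with lower ends down to -3.39 and -3.42 in log2 units. Direction was less even, with 34 of 45 members (75.6%) reading higher in H2B K123R, against 60.4% of all genes. That count was 28 of 45 (62.2%) without H2B K123R replicate 1, against 54.5% of all genes, and after cyclic loess it was 30 of 45 (66.7%), against 52.0%. The median difference of the members was 0.17, against 0.08 for all genes, and it was 0.11, against 0.03, without H2B K123R replicate 1. Signals of the groups did not overlap for 20 members (44.4%), 15 of them higher and 5 lower. Over all genes that share was 39.3%, with 25.5% higher and 13.8% lower.

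**Figure D1:**
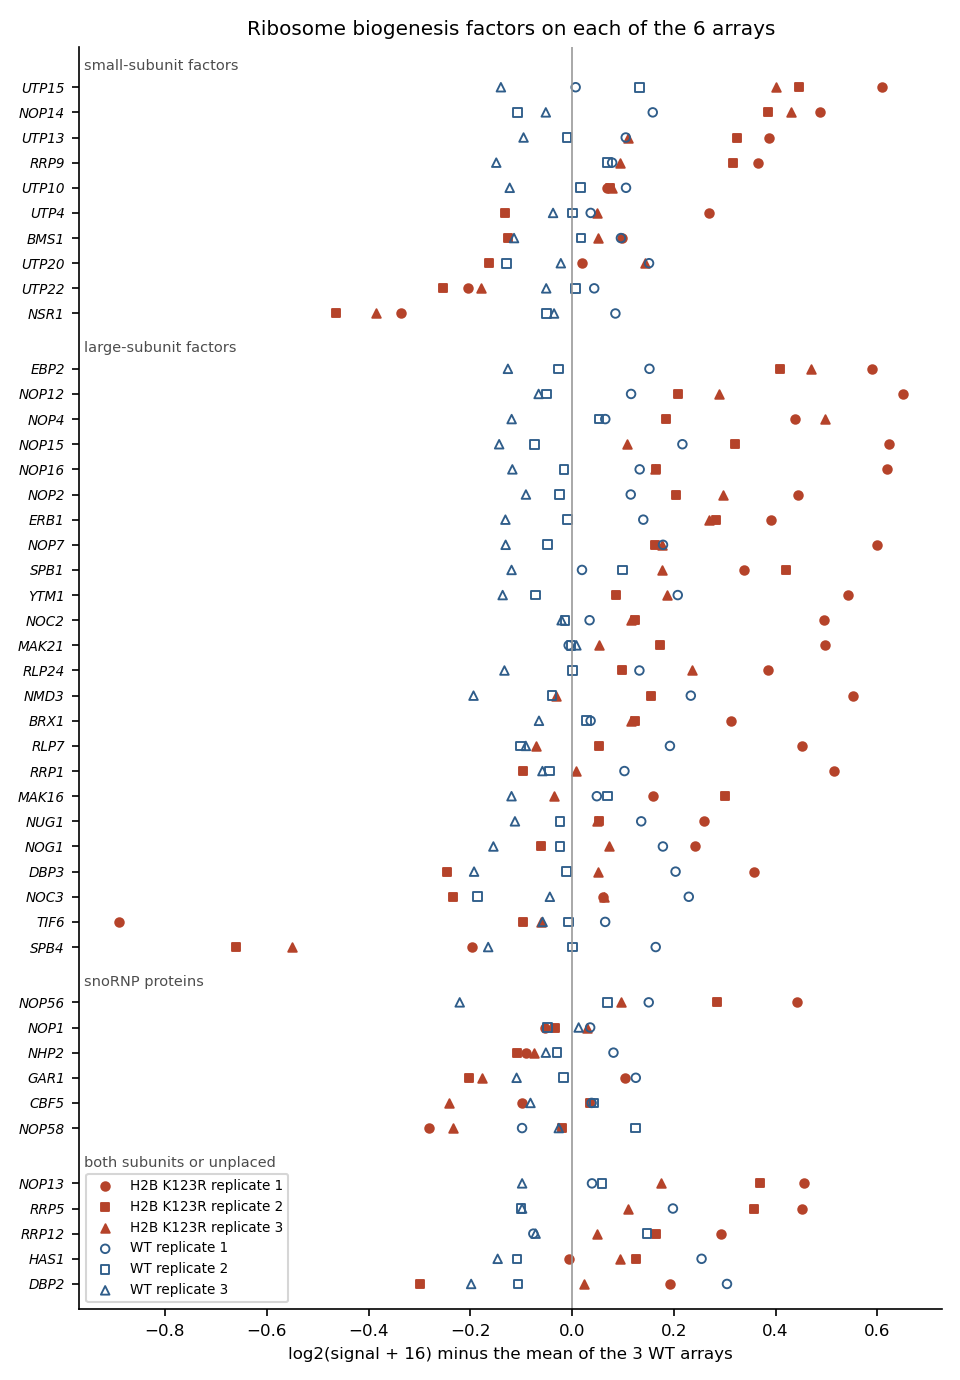
Log2(signal + 16) of each of the 45 factors on each array, relative to the mean of the 3 WT arrays (x axis, log2 units), with 1 row per gene grouped by role. Filled symbols are H2B K123R and open symbols WT, and the shape gives the replicate. UTP15, EBP2 and NSR1 have groups that stand apart, and most other rows overlap or nearly touch.

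The small-subunit factors held 2 of the 3 members that passed, and these moved in opposite directions. They were 2 of 10 (20%), against 8.98% of all genes and 2.13% of the 47 other small-subunit factors of the pathway. NSR1 encodes a nucleolin-like protein needed for processing of 18S rRNA. It read 2294, 2098 and 2217 in H2B K123R, against 3079, 2802 and 2831 in WT. Every mutant array was below every WT array. NSR1 thus fell to 0.760 of the WT level (2203 ± 98.8 against 2904 ± 152, mean ± SD, n = 3 each; log2 difference -0.40, SE 0.07; limma adjusted p = 0.0318).

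UTP15 encodes a subunit of UTP-A, the subcomplex of the processome that binds the start of the precursor first. Its signals were 773, 689 and 667 in H2B K123R, against 504, 551 and 453 in WT, with no overlap. UTP15 rose 1.40-fold (709 ± 55.8 against 503 ± 48.8, SD, n = 3 each; log2 difference 0.49, SE 0.11; limma adjusted p = 0.0455). Neither of the other UTP-A members here passed. UTP10, a large scaffold protein, read 1433, 1439 and 1445 in H2B K123R, against 1472, 1382 and 1254 in WT, and UTP4 averaged 129 ± 20.3 in H2B K123R and 122 ± 3.54 in WT (SD, n = 3 each). Their groups overlapped, with log2 differences of 0.07 and 0.06.

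NOP14, a core processome protein, lay just outside the threshold. It read 473, 439.8 and 454 in H2B K123R, against 374, 308 and 321 in WT, a log2 difference of 0.43 (95% interval 0.19 to 0.68; limma adjusted p = 0.0552). The groups did not overlap. It passed with dim probe sets filtered out (adjusted p = 0.0426), with the mean of probe sets per gene (0.0353) and with array weights (0.00517), and stayed outside under the other 12 alternatives (0.0544 to 0.212). UTP13, of the UTP-B subcomplex, averaged 893 ± 89.4 in H2B K123R and 735 ± 52.8 in WT (SD, n = 3 each). RRP9, the U3 snoRNP protein, averaged 662 ± 66.1 in H2B K123R and 551 ± 49.3 in WT (SD, n = 3 each). For both genes the lowest mutant array was barely above the highest WT array, at 793 against 791 for UTP13 and 587 against 581 for RRP9, and neither passed (limma adjusted p = 0.168 and 0.213).

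UTP22, of the UTP-C subcomplex, was the other small-subunit factor that read lower. It gave 774, 749 and 789 in H2B K123R, against 923, 899.8 and 864 in WT (log2 difference -0.21; limma adjusted p = 0.132). The groups did not overlap, but the test was not passed. UTP22 did pass after cyclic loess (log2 difference -0.31; adjusted p = 0.0442) and with array weights (adjusted p = 0.0369). BMS1, a GTPase that acts in early processing, and UTP20, a very large scaffold protein, had log2 differences of 0.01 and 0.00. Their 95% intervals were -0.24 to 0.26 for BMS1 and -0.29 to 0.29 for UTP20. The 10 small-subunit factors as a group had a median of 0.07, near the 0.08 of all genes, with 8 differences above 0, BMS1 and UTP20 among them. The median was 0.03, with 5 of 10 above 0, when H2B K123R replicate 1 was left out, and after cyclic loess the median was -0.00344, also with 5 above 0.

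**Figure D2:**
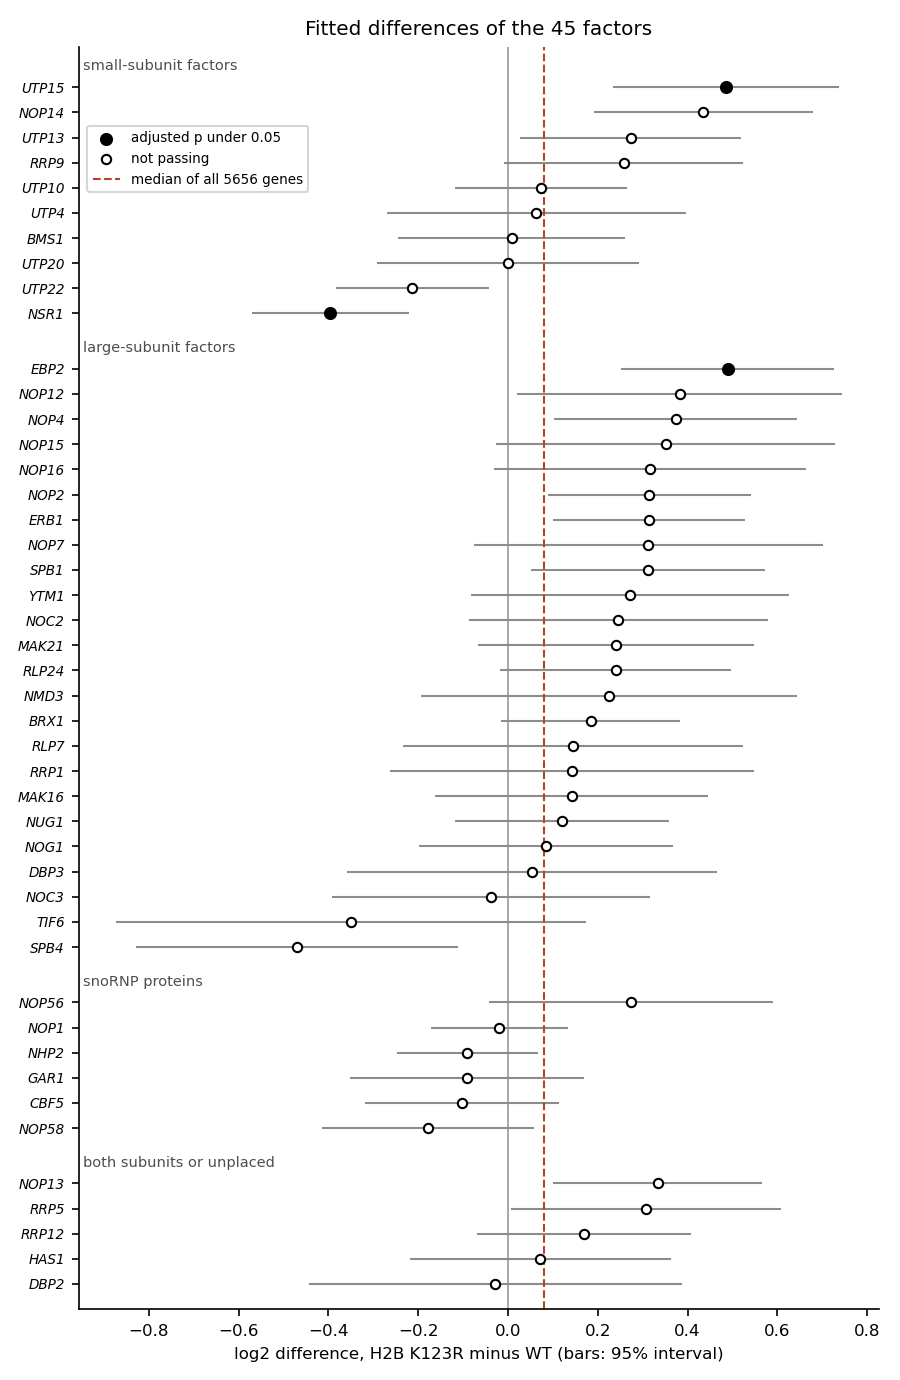
Fitted log2 difference, H2B K123R minus WT, of each factor (x axis), with its 95% interval from the limma fit and 1 row per gene grouped by role. Filled points passed the test, and the dashed line is the median of all 5656 genes at 0.08. The large-subunit factors lie mostly to the right of that line, with DBP3, NOC3, TIF6 and SPB4 on the left.

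The large-subunit factors mostly read higher, and 1 of 24 passed (4.17%, against 8.98% of all genes). Of the 24 differences 21 were positive (87.5%, against 60.4% of all genes), with a median of 0.24, which is a ratio of 1.18. Without H2B K123R replicate 1 that median was 0.13 and 18 were positive (75.0%, against 54.5%), with RRP1, DBP3 and RLP7 below 0. EBP2 was the member that rose. It encodes a nucleolar protein needed for maturation of 25S rRNA and read 1202, 1059 and 1105 in H2B K123R, against 884, 779 and 726 in WT. All mutant signals were higher than all WT signals, and the rise was 1.40-fold (1122 ± 73.1 against 796 ± 80.3, SD, n = 3 each; log2 difference 0.49, SE 0.10; limma adjusted p = 0.0384).

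The calls of NSR1, UTP15 and EBP2 were all close to the threshold. Each kept its direction in every fit that was run. All 3 still passed without H2B K123R replicate 1, where 8.89% of the 45 members and 14.4% of all genes passed. None of the 3 passed in limma when any other single array was left out. Without a variance trend the limma adjusted p values were 0.0537 for NSR1, 0.0556 for UTP15 and 0.0518 for EBP2. With a replicate block they were 0.0531 for NSR1, 0.0651 for UTP15 and 0.0490 for EBP2, and after cyclic loess UTP15 was at 0.0592.

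The Nop7 complex, made of NOP7, ERB1 and YTM1, joins the early large-subunit particle as a unit, and its genes had differences of 0.31, 0.31 and 0.27, which were 0.17, 0.28 and 0.14 without H2B K123R replicate 1. ERB1 read 2699, 2502 and 2481 in H2B K123R, against 2266, 2042 and 1875 in WT, without overlap (limma adjusted p = 0.0901). For YTM1 the signals were 1856, 1347 and 1445 in H2B K123R, against 1467, 1206 and 1153 in WT. NOP7 averaged 217 ± 41.8 in H2B K123R and 171 ± 21.2 in WT (SD, n = 3 each). ERB1 alone of the 3 had groups that stood apart, since WT replicate 1 reached into the mutant range for NOP7 and YTM1. In both of these H2B K123R replicate 1 was the highest array.

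RNA-binding proteins with an RNA recognition motif form another set among the large-subunit factors. NOP4 read 609, 509 and 636 in H2B K123R, against 467, 463 and 409 in WT, a log2 difference of 0.37. NOP12, which acts in early large-subunit assembly, read 223, 160.4 and 170.4 in H2B K123R, against 149, 131 and 129.8 in WT (log2 difference 0.38), and NOP15 averaged 1061 ± 195 in H2B K123R and 824 ± 115 in WT (SD, n = 3 each; log2 difference 0.35). The groups stood apart for NOP4 and NOP12 and overlapped for NOP15. None of the 3 passed, with limma adjusted p between 0.104 and 0.229. NSR1, which carries the same kind of motif, fell, as given above.

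Among the large-subunit members, the rRNA methyltransferases NOP2 and SPB1 also read higher. NOP2, which methylates a cytosine of 25S rRNA, gave 1660.1, 1405 and 1498 in H2B K123R, against 1319, 1196 and 1141.5 in WT. SPB1, which methylates ribose, gave 390.2, 414 and 347 in H2B K123R, against 309.6, 328 and 279.8 in WT. Neither gene's groups overlapped and neither passed (log2 differences of 0.32 and 0.31; limma adjusted p = 0.101 and 0.141). NOP1, the methyltransferase of the box C/D snoRNPs, did not share the direction, with a log2 difference of -0.02.

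The Noc proteins, which accompany the particle from nucleolus to nucleoplasm, were uneven. MAK21, also called Noc1, read 518, 411 and 377 in H2B K123R, against 361, 362 and 365 in WT. Its partner NOC2 read 212, 160.2 and 159 in H2B K123R, against 149.7, 144 and 143 in WT. For both genes replicate 1 held most of the difference, which was 0.24 for MAK21 and 0.25 for NOC2 on all arrays and 0.11 and 0.12 without that replicate. NOC3 overlapped fully, at 274 ± 33.2 in H2B K123R and 283 ± 44.5 in WT (SD, n = 3 each).

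SPB4, a DEAD-box RNA helicase of late 25S rRNA maturation, had the largest negative difference among the 45 members. It read 528, 378 and 409.7 in H2B K123R, against 683, 608 and 540.5 in WT. The groups did not overlap, but the mutant arrays were widely spread (log2 difference -0.47, 95% interval -0.83 to -0.11; limma adjusted p = 0.116). Without H2B K123R replicate 1 the log2 difference was -0.61 and it passed (adjusted p = 0.0269). It also passed after quantile normalization (adjusted p = 0.0399), after cyclic loess (adjusted p = 0.0207) and with array weights (adjusted p = 0.0076). The share of all genes passing was 14.4% without H2B K123R replicate 1, 10.8% after quantile normalization and 13.5% after cyclic loess. With array weights 2078 of 5656 genes passed. The other members that belong to this helicase family had differences nearer to 0. They were 0.05 for DBP3 of the large subunit, 0.07 for HAS1 of both subunits and -0.03 for DBP2, which also acts on messenger RNA, and all 3 genes overlapped. DBP3 turned to -0.10 without H2B K123R replicate 1 and was also below 0 after either normalization, and DBP2 was at -0.14 without that replicate. Outside the members, the DBP helicase genes of the pathway were more varied, from -0.11 for DBP8 to 0.51 for DBP4, and none of them passed in limma.

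None of the factors that act late or leave the nucleus with the particle passed. TIF6 is the yeast eIF6, which keeps an immature large subunit from joining a small one. It read 1606, 2798 and 2868 in H2B K123R, against 3131, 2977 and 2874 in WT. The low value was replicate 1 alone, and the log2 difference was -0.35 on all arrays (limma adjusted p = 0.374) and -0.08 without that replicate. NMD3, the export adaptor, moved the other way on the same array, at 2582, 1956 and 1717 in H2B K123R, against 2066, 1707 and 1533 in WT. RLP24, which holds the place of a ribosomal protein until late maturation, averaged 1330.2 ± 134 in H2B K123R and 1124 ± 105 in WT. The GTPase NOG1 averaged 1447 ± 154 in H2B K123R and 1366 ± 162 in WT (SD, n = 3 each).

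The other large-subunit factors did not pass and had positive differences. NOP16, BRX1, RLP7, RRP1, MAK16 and the GTPase NUG1 lay between 0.12 and 0.32. When H2B K123R replicate 1 was left out, RRP1 and RLP7 turned to -0.04 and -0.01, NUG1 stood at 0.05 and NOP16 at 0.16. NOP16 read 1214, 882 and 881 in H2B K123R, against 862, 776 and 722 in WT, and BRX1 read 1666, 1459.6 and 1451 in H2B K123R, against 1373, 1365 and 1279 in WT. These 2 had groups that did not overlap, and the other 4 did overlap.

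The snoRNP proteins mostly read lower in H2B K123R. None of the 6 passed in limma (0%, against 8.98% of all genes), and none had an unadjusted p under 0.05 (0%, against 30.7%). Of their differences 5 were negative (83.3%, against 39.6% of all genes), with a median of -0.09. Those 5 genes had mean signals above 2000, where 62.7% of all genes read lower. The box H/ACA snoRNPs convert uridine to pseudouridine, and their proteins CBF5 (the enzyme), GAR1 and NHP2 had differences of -0.10, -0.09 and -0.09. NHP2 read 5472, 5407 and 5530.5 in H2B K123R, against 6166, 5707 and 5622 in WT. Its groups stood apart, and those of the other 5 genes overlapped.

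Of the box C/D proteins, which guide ribose methylation, NOP58 and NOP56 differed in sign on the probe sets used. NOP58 read 7743, 9283 and 8003 in H2B K123R, against 8790.4, 10259 and 9242 in WT (log2 difference -0.18). The dimmest of its further probe sets went the other way, at 0.20, with groups that did not overlap (limma adjusted p = 0.410). The others gave -0.14 and -0.06. NOP56, the partner of NOP58, read 1603, 1436 and 1258 in H2B K123R, against 1307, 1235 and 1007 in WT (log2 difference 0.27). NOP1 averaged 3497 ± 105 in H2B K123R and 3543 ± 107 in WT (SD, n = 3 each). On the probe sets used the 3 genes overlapped between strains, and the limma adjusted p values were 0.316 for NOP58, 0.258 for NOP56 and 0.888 for NOP1. The direction of the snoRNP group depended on the scaling: after quantile normalization its median was 0.02 and the signs of NOP1, NOP58, GAR1 and NHP2 turned, and after cyclic loess its median was -0.02 and the sign of NOP1 turned.

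**Figure D3:**
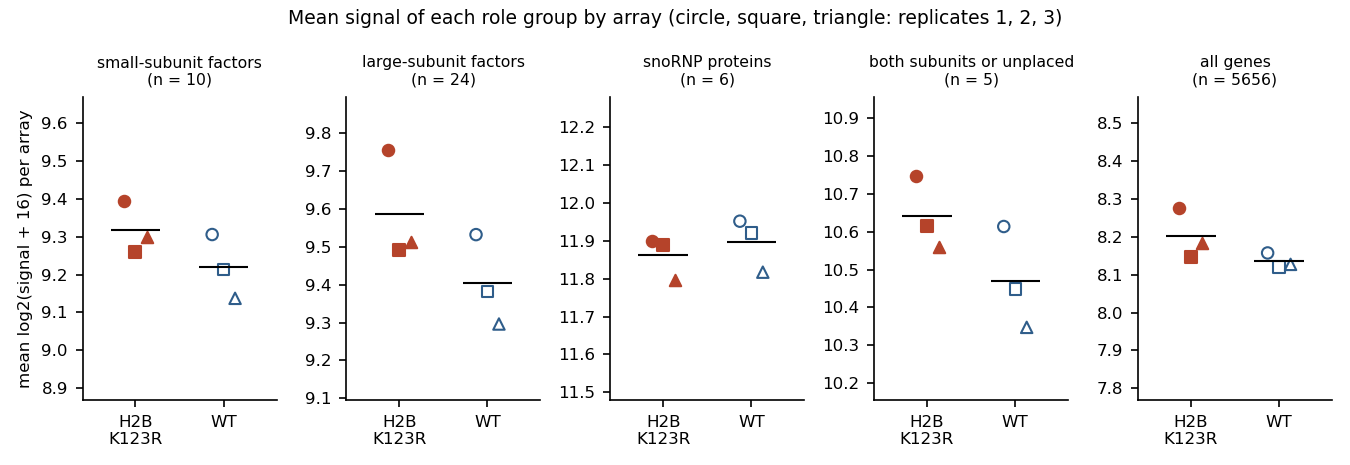
Mean log2(signal + 16) of each role group on each array, H2B K123R on the left and WT on the right of each panel, with the mean of the 3 arrays as a line. All panels span the same range of log2 units. The large-subunit panel shows H2B K123R replicate 1 at 9.75, above the other mutant arrays at 9.49 and 9.51, and WT replicate 1 at 9.53, inside the mutant range.

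Among the 5 factors of both subunits or no settled place, NOP13 came nearest to passing. This relative of NOP12 read 1574, 1482 and 1293 in H2B K123R, against 1175, 1192 and 1067 in WT, with no overlap (log2 difference 0.33; limma adjusted p = 0.0948). RRP5, which is needed for rRNA of both subunits, read 1745, 1634 and 1374 in H2B K123R, against 1461, 1185 and 1187 in WT. RRP12, which takes part in export of both subunits, averaged 1557 ± 133 in H2B K123R and 1383 ± 127 in WT (SD, n = 3 each). RRP5 and RRP12 overlapped, with differences of 0.31 and 0.17. DBP2 had a second probe set that gave a difference of -0.20 (limma adjusted p = 0.288), beside -0.03 on the one used.

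The WT arrays ranked in much the same order for most of the factors. WT replicate 1 was the highest WT array for 37 of 45 members (82.2%), against 48.3% of all genes, and WT replicate 3 the lowest for 35 of 45 (77.8%), against 31.9% of all genes. The mean log2 signal of the 45 was 9.92, 9.80 and 9.71 on WT replicates 1, 2 and 3. On the H2B K123R arrays it was 10.07, 9.88 and 9.89. WT replicate 1 was therefore above 2 of the 3 mutant arrays, and the groups overlapped for the mean of the members. In the large-subunit group they overlapped as well, with 9.75, 9.49 and 9.51 in H2B K123R, against 9.53, 9.38 and 9.30 in WT. In both sets each mutant array was above the WT array of the same number, and this also held for the mean of all genes. The labels do not say that the numbers mark pairs. H2B K123R replicate 1 was the highest of the 6 arrays for 28 members (62.2%), against 49.8% of all genes.

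The direction of a difference also went with the brightness of the probe set. Of the 9 members with a mean signal above 2000, 8 read lower in H2B K123R, while 3 of the other 36 did. Over all genes 318 of 507 (62.7%) read lower above that level and 1922 of 5149 (37.3%) below it. Without H2B K123R replicate 1, the array with the lowest 99th percentile, the same 8 of the 9 bright members read lower, as did 299 of the 507 bright genes (59.0%). After quantile normalization 4 of the 9 members and 239 of the 507 genes (47.1%) read lower, and after cyclic loess 7 of the 9 and 266 of the 507 (52.5%). The level of 2000 was chosen after the values were seen.

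UTP20 and UTP22 each had further probe sets, 9 for UTP20 and 5 for UTP22, and these gave a different picture on 1 array. On the probe set used, UTP20 read 373, 326 and 408 in H2B K123R, against 409.7, 334 and 361 in WT. The brightest of its further probe sets read 22.5, 453 and 321 in H2B K123R, against 354, 539 and 399 in WT. Replicate 1 of the mutant was far below every other array there, though not on the probe set used. For UTP22 the brightest further probe set read 158.9, 409.9 and 405 in H2B K123R, against 448, 461 and 408 in WT. Another read 27.8, 521 and 255 in H2B K123R, against 375, 606 and 445 in WT. H2B K123R replicate 1 was the lowest of the 6 arrays on 7 of the 9 further probe sets of UTP20 and on all 5 of UTP22.

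All 14 of these further probe sets had negative fitted differences, from -1.27 to -0.16 for UTP20 and from -1.38 to -0.23 for UTP22. None passed (limma adjusted p of 0.288 or more), and none had an unadjusted p under 0.05. Without H2B K123R replicate 1 they lay between -0.39 and 0.16. The pattern was not limited to these genes. Of 75 genes with at least 5 probe sets, 65 had, on that array relative to the other mutant arrays, a lower median ratio on the further probe sets than on the brightest one. The medians over these genes were 0.333 on the further probe sets and 1.01 on the brightest. Actin control probe sets at the 3' and 5' ends had signals in a ratio of 1.98 on H2B K123R replicate 1, and of 1.59 and 1.40 on replicates 2 and 3. In WT the ratios were 1.504 to 1.54. The other controls of this kind did not rank the arrays alike. For SRB4 the ratio was 4.87, 3.50004 and 3.19 in H2B K123R, all above the 2.23 to 2.64 of WT, and for SPT15 it was 2.26 on H2B K123R replicate 1, the lowest of the 6 arrays, against 2.33 to 2.69 on the other 5. The part of RNA quality in these values was not tested.

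**Figure D4:**
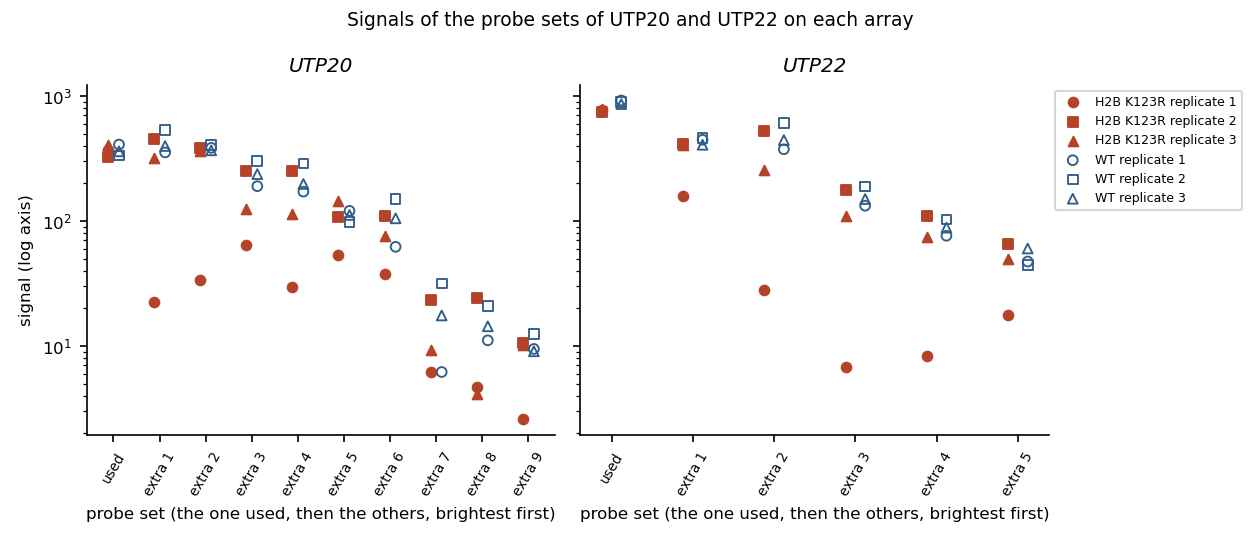
Signals (log axis) of the probe sets of UTP20 and UTP22 on each array, the one used first and the others by brightness. Filled symbols are H2B K123R, drawn left of WT in each column, and open symbols are WT. The filled circle, H2B K123R replicate 1, falls with the others on the probe set used and drops to 22.5, against 321 to 539 elsewhere, on the brightest further set of UTP20.

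Other genes of the pathway also read higher more often than lower. Of 128 measured, 2 rose and 3 fell (3.91%), against 8.98% of all genes. Positive differences numbered 103 (80.5%, against 60.4% of all genes), and the median was 0.24, against 0.08. Without H2B K123R replicate 1 the median was 0.13 and 9 passed (7.03%, against 14.4% of all genes). With any other single array left out 0 to 2 of the 128 passed, and the share of all genes in those fits is not given here. With a replicate block 3 of the 128 passed, beside 248 of 5656 genes. The 47 other small-subunit factors had a median of 0.31 and the 50 other large-subunit factors 0.24. The 10 small-subunit members described above had a median of 0.07, and the lists were not compared by a test.

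The 5 genes that passed act at different steps. SOF1, a U3-associated processome protein, rose 1.48-fold (895 ± 65.0 in H2B K123R, 599.7 ± 70.1 in WT; limma adjusted p = 0.0358). AFG2, the ATPase that strips RLP24 from the large subunit in the cytoplasm, fell to 0.674 of the WT level (306 ± 6.65 in H2B K123R, 464 ± 65.2 in WT; adjusted p = 0.0387). The remaining 3 serve transcription of ribosomal DNA by RNA polymerase I.

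RRN3, which brings that polymerase to the promoter, rose 1.46-fold, with 544, 486 and 482 in H2B K123R, against 341, 317 and 362 in WT (limma adjusted p = 0.0279). RRN10, a subunit of the upstream activating factor, fell to 0.645 of the WT level, with 110.4, 90.8 and 107 in H2B K123R, against 179.98, 151 and 173 in WT (adjusted p = 0.0403). HMO1, a high mobility group protein bound to ribosomal DNA and ribosomal protein promoters, fell to 0.731, with 2523, 2587 and 2921 in H2B K123R, against 3849, 3492 and 3655 in WT (adjusted p = 0.0304). None of these 3 genes overlapped between strains. None of 10 regulators of ribosome synthesis passed in limma, against 8.98% of all genes, and 4 had an unadjusted p under 0.05, against 30.7%. IFH1, a coactivator of ribosomal protein genes, came nearest, at 367 ± 43.9 in H2B K123R and 251 ± 35.2 in WT (SD, n = 3 each; adjusted p = 0.0759), and the activator SFP1 averaged 182 ± 20.1 in H2B K123R and 229.7 ± 18.9 in WT (adjusted p = 0.188).

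Genes for cytosolic ribosomal proteins, the partners of these factors in the finished subunits, stood on the other side of 0. Of 81 measured, 76 read lower in H2B K123R (93.8%, against 39.6% of all genes), with a median of -0.19, which was -0.03 after quantile normalization, -0.06 after cyclic loess and -0.12 without H2B K123R replicate 1. None passed by limma, and 27 had an unadjusted p under 0.05 (33.3%, against 30.7% of all genes). The lower readings numbered 52 of 81 after quantile normalization (64.2%, against 42.8% of all genes) and 62 of 81 after cyclic loess (76.5%, against 48.0%). Without H2B K123R replicate 1 they numbered 75 of 81 (92.6%, against 45.5%). Mean signals of these genes ran from 437 to 22045, and 62.7% of all genes with a mean signal above 2000 read lower on all arrays. Ribosomal protein and biogenesis genes were not compared by a test.

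**Figure D5:**
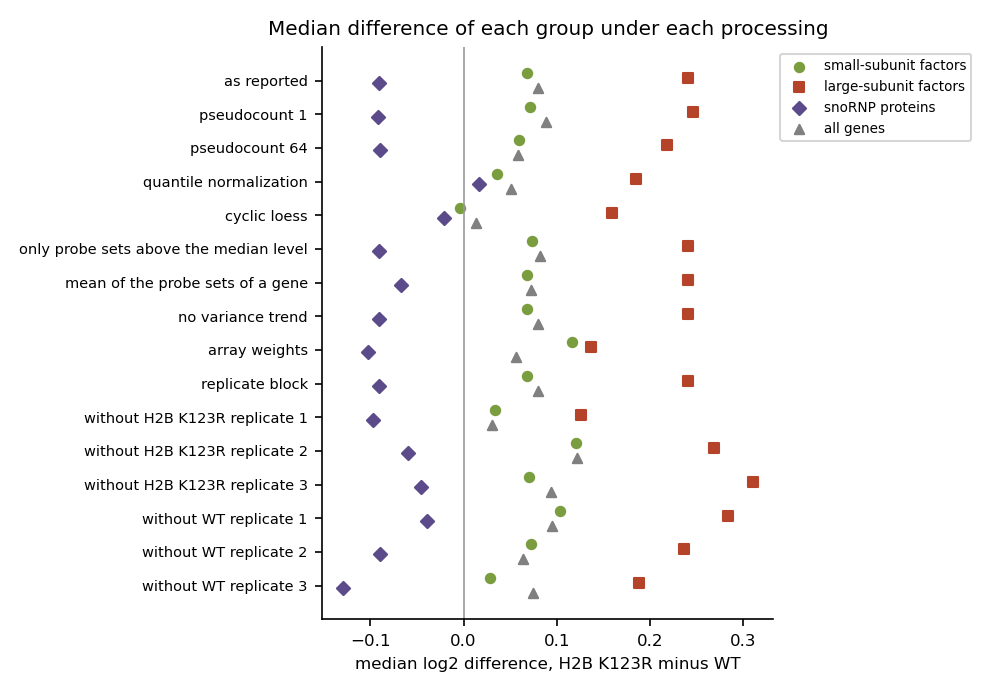
Median log2 difference (x axis) of the small-subunit, large-subunit and snoRNP groups and of all genes, under each processing that was run (rows). The large-subunit median stays above that of all genes in every row, between 0.13 and 0.31, while the small-subunit median turns negative with cyclic loess and the snoRNP median turns positive with quantile normalization.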

How the data were processed

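RNA from 3 H2B K123R and 3 WT cultures was hybridised to Affymetrix S98 arrays, 1 per culture, per the labels' protocols. The deposited values are probe set intensities on a linear scale. All arrays had nearly the same trimmed mean (500.4 to 500.5 after removing 2% at each end), which points to a global scaling before deposit. No source used here names the summarization software. Precision is limited by the small number of arrays. Of 9335 probe sets, 60 controls were set aside and 9275 tested; 6504 name 1 gene, 328 several and 2443 none. Group and replicate number came from the sample titles. Differences in log2(signal + 16) were fitted with limma 3.58.1 in R 4.3.3 (two-sided, with a trended empirical Bayes prior and Benjamini-Hochberg adjustment). Folds are on that scale, which understates changes of dim genes. The fit was also run on simulated arrays with known changes and missed a part of them, so a gene that did not pass may still differ. Alternatives were other pseudocounts, quantile and cyclic loess normalization, a filter on dim probe sets, means of probe sets, no variance trend, array weights, a block on the replicate number and leaving out each array. All members were named; values per array were given for members that passed, those with the extreme differences or highest mean signal of each role group, and, after their values were seen, others. The members, lists and tests were chosen with earlier results of these data known. The subgroups by complex and enzyme type were made after the values were seen. A planned motif search in promoters was not run, and no sequences were used here.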

Additional observations from a re-analysis of the deposited data

How the results depend on the processing

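The calls of the members were narrow. As reported 3 members passed, 1 of them a large-subunit and 2 of them small-subunit factors. Over the array 508 of 5656 genes and 620 probe sets passed. Without a variance trend 0 of 45 members passed (0 large-subunit and 0 small-subunit factors), beside 497 of 5656 genes and 614 probe sets. With array weights 13 of 45 members passed (7 and 4), beside 2078 of 5656 genes and 2885 probe sets. Those 13 were EBP2, ERB1, NOP2, NOP4, NOP12, RLP24, SPB4, NOP14, NSR1, UTP15, UTP22, NOP58 and NOP13. Quantile normalization and cyclic loess each gave 2 large-subunit calls, EBP2 and SPB4 (8.33%, against 10.8% and 13.5% of all genes). Leaving out 1 array gave 0 to 4 members, 0 to 2 large-subunit factors, 0 to 2 small-subunit factors and 22 to 1023 probe sets. The highest of these counts came without H2B K123R replicate 1, where 14.4% of all genes passed. No member passed without any one of the other 5 arrays. NSR1, UTP15 and EBP2 kept their signs under all 15 alternatives, with adjusted p from 0.00235 to 0.135 for NSR1, 0.00753 to 0.175 for UTP15 and 0.00338 to 0.163 for EBP2.

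With a replicate block, 1 member passed (EBP2) and 0 small-subunit factors passed, beside 248 of 5656 genes and 307 probe sets. Deviations from the group means correlated at 0.318, 0.382 and 0.053 between arrays numbered 1, 2 and 3, and each array correlated best with the one of its own number. The labels do not say that the numbers mark a shared batch.

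The snoRNP median was 0.0163 after quantile normalization and -0.0205 after cyclic loess, and the small-subunit median -0.00344 after cyclic loess. Among 674 recomputed values 36 reversed in direction, and 13 of the 45 members changed sign under at least 1 alternative. None of these members had passed. After quantile normalization the log2 differences were -0.093 for UTP20, -0.085 for BMS1, -0.0094 for DBP3, 0.046 for NOP1, 0.0032 for NOP58, 0.0057 for GAR1, 0.027 for NHP2 and -0.0070 for HAS1. After cyclic loess they were -0.029 for UTP4, -0.117 for UTP20, -0.109 for BMS1, -0.0064 for DBP3, 0.022 for NOP1 and -0.010 for HAS1. With array weights they were 0.058 for NOC3, -0.012 for RLP7, 0.021 for NOP1 and 0.055 for DBP2. With the mean of its probe sets UTP20 gave -0.541, since its further probe sets then count. With 1 array left out the values ran from -0.041 to 0.160 for UTP4, -0.071 to 0.082 for UTP20, -0.049 to 0.075 for BMS1, -0.044 to 0.262 for RRP1, -0.097 to 0.204 for DBP3, -0.0091 to 0.252 for RLP7, -0.130 to 0.078 for NOC3, -0.138 to 0.124 for DBP2 and -0.0014 to 0.199 for HAS1. Apart from the further probe sets of UTP20, the cause of these changes was not tested.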

Other observations

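The array also carries 10 control probe sets for the product of this pathway, 5 each along 18S and 25S rRNA, which entered no comparison. Their signals overlapped between the strains on all 10. The brightest 25S probe set read 61.1, 11359 and 3335 on H2B K123R replicates 1, 2 and 3, against 472, 4376 and 955 on WT replicates 1, 2 and 3. In both strains replicate 1 was the lowest and replicate 2 the highest array on all 10 of these probe sets. On the brightest 18S probe set the values were 23.8, 1619 and 291 in H2B K123R, against 152, 988 and 269 in WT. How rRNA was carried into the labelled material is not described in the labels, so these signals are not levels of rRNA in the cells.

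Some members lie beside other genes of the pathway in the R64 gene order. GAR1 is next to RPF1, a large-subunit factor, NMD3 next to the helicase gene DBP8, and UTP13 lies between RSA3 and IFH1. RPF1 read 419 ± 113 in H2B K123R and 288 ± 26.5 in WT (log2 difference 0.49, limma adjusted p = 0.175), beside -0.09 for GAR1, and DBP8 had a difference of -0.11, beside 0.23 for NMD3. For UTP13 the difference was 0.27, with 0.13 for RSA3 and 0.53 for IFH1.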
